A study of Arabidopsis thaliana with 8 samples.

Results

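The genes described here encode nuclear subunits of the mitochondrial respiratory chain, the alternative oxidases and alternative NAD(P)H dehydrogenases, an uncoupling protein, and enzymes of the tricarboxylic acid (TCA) cycle. They were chosen as 47 listed loci among 23935 genes in the 3 deposited Arabidopsis expression tables: 12 of complex I, 12 of complex II (succinate dehydrogenase), 2 of complex III, 4 of complex IV and cytochrome c, 9 of the alternative pathway, UCP1, and 7 of the TCA cycle. No threshold on a measured value entered the list, but it was drawn up with the comparisons of each mutant with wild type already known. Counts of changed members and differences between mutant and wild type are therefore descriptions, and nothing is inferred from how many members moved.

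Messenger RNA was sequenced from whole seedlings, aged 10 days, of the Col-0 ecotype in 4 groups of 2 libraries. The mutant groups are arid5 (arid5(-/-)), chr11/17 and rlt1/2, and the remaining group is wild type (WT), all raised on MS plates with 16 h light at 23 °C and 8 h darkness at 21 °C. CHR11 and CHR17 are ATPases of the ISWI family of chromatin remodellers, RLT1 and RLT2 are DDT-domain proteins that work with them, and the series title places ARID5 in the same machinery. The alleles, the number of lines and any pooling of plants are not given in the labels, which also do not say whether libraries of a group come from separate cultures, so p-values reflect only how far the libraries of a group differ, which may be technical. Each mutant was compared with the WT libraries of its own table, in normalised reads, that is, reads scaled to a common library size within the table. Changes are log2 ratios of (value + 10), mutant over WT, ± standard error (n = 2 libraries per group), and a gene is called where the limma fit over its whole table gave a Benjamini-Hochberg adjusted p under 0.05.

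The respiratory chain passes electrons from NADH (complex I) and succinate (complex II) to ubiquinone, and from there through complex III, cytochrome c and complex IV to oxygen. Plant mitochondria can bypass the proton-pumping steps: alternative NAD(P)H dehydrogenases feed ubiquinone beside complex I, and the alternative oxidase passes electrons from ubiquinol straight to oxygen. Complex II also belongs to the TCA cycle, which supplies the reducing equivalents. Several subunits of complexes I, III and IV are encoded in the mitochondrial genome; those loci are not analysed here.

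The libraries held 23135817 to 29965298 recovered reads each. ARID5 (AT3G43240) had 213 and 206 normalised reads in arid5, against 831 and 845 in WT, and RLT2 had 87.8 and 60.6 normalised reads in libraries labelled rlt1/2, against 2292 and 2161 in WT. RLT1 (HB-1 in RefSeq) was not called and had 2318 and 1908 in libraries labelled rlt1/2, against 1955 and 1969.9 in WT. CHR11 was higher, with 7226 and 7319 in libraries labelled chr11/17, against 3077 and 2915 in WT, and CHR17 was lower, with 771 and 834 in libraries labelled chr11/17, against 1396 and 1316 in WT. The CHR11 and RLT1 levels thus go against a reading of the labels as loss of transcript, and every direction given for those libraries is that of libraries labelled chr11/17 or rlt1/2. All 16 photosynthesis markers were lower in each mutant, with median changes of -0.96 in arid5, -2.60 in libraries labelled chr11/17 and -1.08 in those labelled rlt1/2; in bulk seedlings, fewer cells of a type and less RNA per cell cannot be told apart. The summed photosynthesis markers were 1325109 and 1473919 normalised reads in arid5, against 2799135 and 2705319 in WT. They were 360201 and 544832 in libraries labelled chr11/17, against 2795241 and 2701435 in WT, and 1603094 and 1303411 in libraries labelled rlt1/2, against 3099440 and 2986364 in WT. Of 8 root markers, 5 were higher and 1 lower in arid5, 5 higher and 2 lower in chr11/17, and 6 higher and 1 lower in rlt1/2. Of all genes tested, 23.3%, 35.9% and 23.8% were called higher in arid5, chr11/17 and rlt1/2, and 24.6%, 36.0% and 24.0% lower. The summed root markers ranged from 2320 to 2372 in arid5, against 1888 to 1920 in WT, from 1893 to 1966 in chr11/17, against 1885 to 1918 in WT, and from 3233 to 3261 in rlt1/2, against 2084 to 2127 in WT. The summed seed markers were 28 and 29 in arid5, against 8 and 2 in WT, 381 and 162 in chr11/17, against 8 and 5 in WT, and 42 and 51 in rlt1/2, against 9 and 5 in WT; the seed marker SESA4 was at 0 in WT. Of 2 anther markers, 1 was in the tables, and it was lower in chr11/17 and not called elsewhere. The part of these tissue differences in the results that follow was not tested.

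In arid5, 44 of the 46 members in the table passed the filter on low values, and 33 were called higher and 3 lower, where 47.9% of all 20550 genes tested were called, 23.3% higher and 24.6% lower. In libraries labelled chr11/17, 45 of 47 passed, and 40 were called higher and 1 lower, where 71.8% of 20878 genes were called, 35.9% higher and 36.0% lower. In libraries labelled rlt1/2, 45 of 47 passed, and 34 were called higher and 3 lower, where 47.9% of 20741 genes were called, 23.8% higher and 24.0% lower. Nothing is read from the difference between the members' counts and these shares. How many of all genes had mutant and WT libraries that did not overlap was not counted. Nothing is therefore read from a lack of overlap in single members. Between 2 and 3 of the members that passed did so only through the mutant libraries. The 3 comparisons share the WT libraries, so they are not independent: 32 members were called higher in all 3 and NDA1 was called lower in all 3. How many of all genes were called the same way in all 3 was not counted, so nothing is read from this number. The median change of the members tested was 0.28 in arid5, 0.85 in chr11/17 and 0.35 in rlt1/2, and the median of all genes tested was 0.0031, -0.0075 and 0.0086. Scaling to equal library totals moved that median to 0.25, 0.14 and 0.27.

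**Figure D1:**
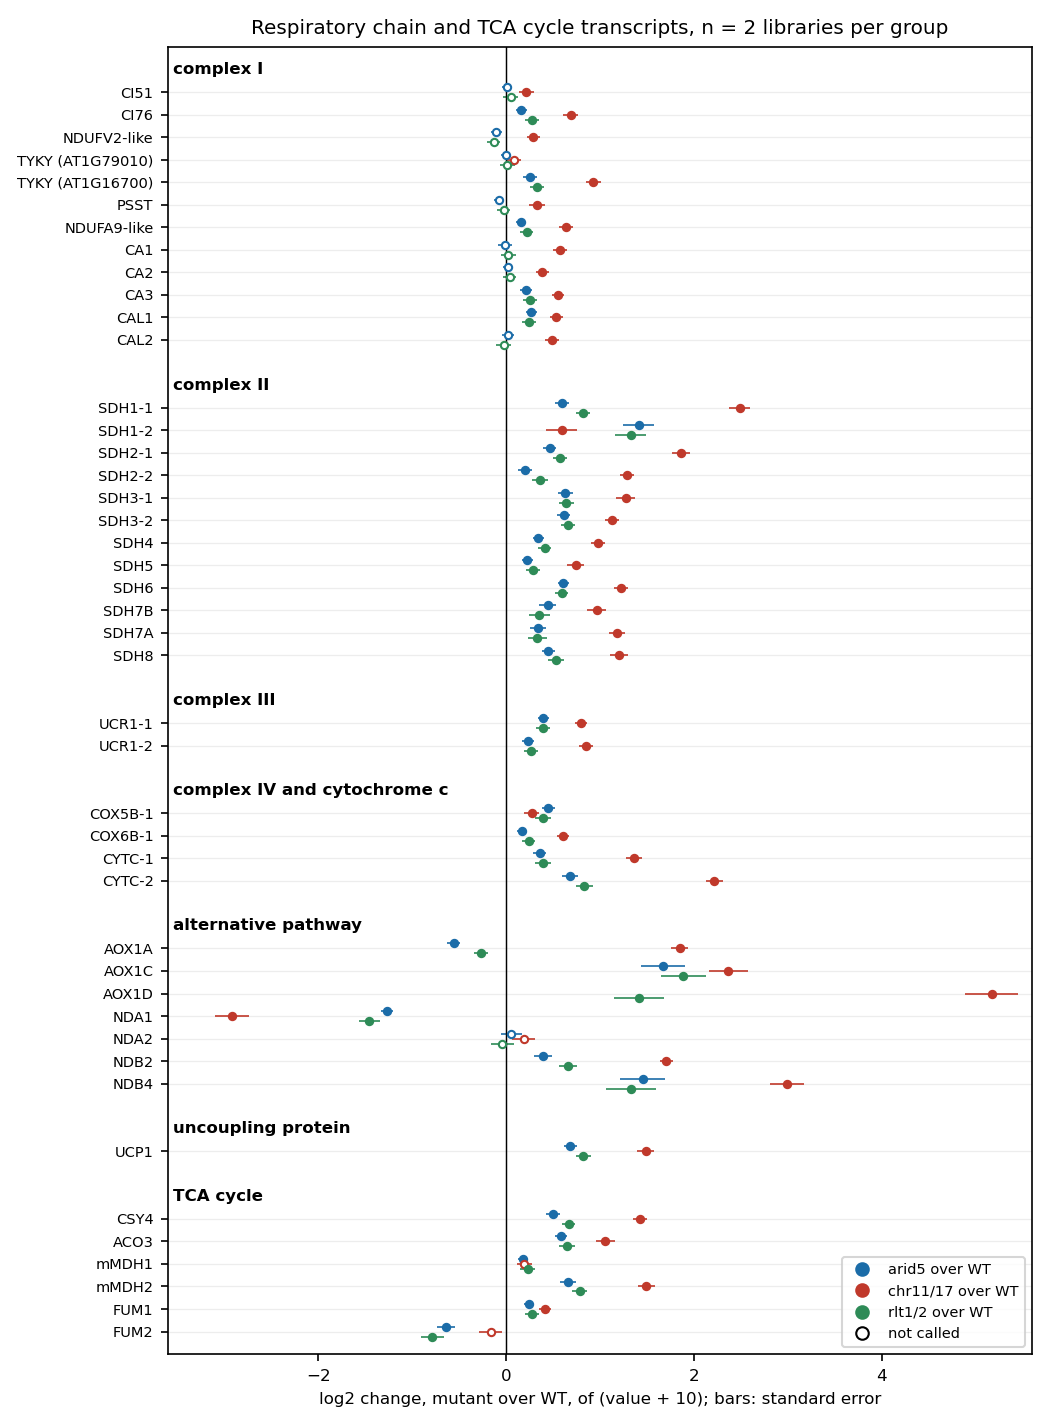
Log2 change (horizontal axis, mutant over WT, of value + 10) of the tested members named in the text, grouped by complex or pathway, with 1 point per mutant and bars of 1 standard error; open points were not called. Complex II lies to the right of 0 in all 3 mutants and furthest right in chr11/17 for every subunit but SDH1-2. Complex I has smaller median changes than complex II. The alternative pathway spans -2.92 (NDA1) to 5.17 (AOX1D) in chr11/17, where AOX1D passed the filter on low values only through the mutant libraries. AOX1A lies to the left of 0 in rlt1/2 except under scaling to equal library totals.

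In WT, levels per coding length (reads per kilobase of coding sequence and per 1000000 reads, mean ± SD of 2 libraries) spanned more than 3 orders of size. Mitochondrial malate dehydrogenase mMDH1 was the highest at 352 ± 3.5. It was followed by cytochrome c gene CYTC-1 at 253 ± 16, the small complex II subunit SDH8 at 249 ± 5 and the complex I subunit PSST at 229 ± 0.27; CYTC-1 and SDH8 did not differ beyond their spread. SDH5 at 194 ± 6.8 and the complex I flavoprotein CI51 at 191 ± 1.3 came next and also did not differ beyond their spread. Among the 8 alternative pathway genes on this scale, NDA1 was the highest at 113 ± 2.7, above AOX1A at 37.9 ± 0.028, NDB2 at 15.9 ± 0.86 and NDA2 at 10.3 ± 1.6. AOX1C was at 0.396 ± 0.13, AOX1D at 0.387 ± 0.037 and NDB4 at 0.224 ± 0.0026. These levels rest on 11 and 7 WT reads for AOX1C, 9 and 8 for AOX1D and 9 and 9 for NDB4. With so few reads, no order is read among these genes, and the small SD of NDB4 reflects equal read numbers. Reads in untranslated regions are counted over coding length only, so genes with long untranslated regions appear higher on this scale.

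Complex II oxidises succinate to fumarate and passes the electrons to ubiquinone. All 12 of its subunit genes were called higher in each mutant, also under each of the scaling alternatives run. Of all genes tested, 23.3%, 35.9% and 23.8% were called higher in arid5, chr11/17 and rlt1/2. Equal library totals also moved the median of all genes upward, to 0.25, 0.14 and 0.27. The complex II median changes were 0.46 in arid5, 1.19 in chr11/17 and 0.55 in rlt1/2. The summed complex II reads were 53563 and 45427 in libraries labelled chr11/17, against 15849 and 15556 in WT, a 3.15-fold difference. They were 22695 and 20627 in arid5, against 15871 and 15578 in WT (1.38-fold), and 24937 and 26415 in libraries labelled rlt1/2, against 17574 and 17197 in WT (1.48-fold).

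SDH1-1 (AT5G66760) encodes the catalytic flavoprotein. It had 6871 and 5714 normalised reads in arid5, against 4219.9 and 4064 in WT (0.60 ± 0.08). It reached 25737 and 20949.6 in libraries labelled chr11/17, against 4214 and 4058 in WT (2.49 ± 0.11), a 5.64-fold level and the largest change of any complex II member. It had 7944 and 8224 in libraries labelled rlt1/2, against 4672 and 4486 in WT (0.82 ± 0.08). No mutant library overlapped its WT libraries, and the chr11/17 libraries stood above all others. SDH1-2 (AT2G18450), the second flavoprotein copy, made up 1.3% and 1.4% of the SDH1 reads per coding length in WT. It was lowest of the mutants in chr11/17. It had 169 and 157 normalised reads in arid5, against 53.8 and 56.2 in WT (1.41 ± 0.16). There were 165 and 170.2 in libraries labelled rlt1/2, against 59.6 and 62 in WT (1.32 ± 0.17), and 86.2 and 89.7 in libraries labelled chr11/17, against 53.7 and 56.2 in WT (0.59 ± 0.17). All mutant libraries stood above WT. Per coding length, on 1 scale for all libraries, SDH1-2 stood at 3.69 and 3.43 in arid5 and at 3.24 and 3.36 in rlt1/2. The SDH1-2 share of SDH1 reads was 2.4% and 2.7% in arid5 and 2.0% in both rlt1/2 libraries, but 0.3% and 0.4% in chr11/17.

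SDH2-1 and SDH2-2 encode the iron-sulphur subunit. SDH2-1 (AT3G27380) had 2363 and 2075 normalised reads in arid5, against 1622 and 1584 in WT (0.46 ± 0.07). It had 6399.9 and 5323 in libraries labelled chr11/17, against 1619.7 and 1581 in WT (1.86 ± 0.10), and 2556 and 2731 in libraries labelled rlt1/2, against 1796 and 1748 in WT (0.57 ± 0.07). The lower copy SDH2-2 (AT5G40650) had 728 and 688 normalised reads in arid5, against 616 and 610.5 in WT (0.20 ± 0.08). Its values were 1549.9 and 1466 in libraries labelled chr11/17, against 615 and 609.6 in WT (1.29 ± 0.07), and 820.1 and 930.1 in libraries labelled rlt1/2, against 682 and 674 in WT (0.36 ± 0.09). Both copies rose in each mutant, and SDH2-1 made up 80.6% and 78.5% of SDH2 reads per coding length in chr11/17, against 72.6% and 72.2% in WT.

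SDH3-1, SDH3-2 and SDH4 encode membrane anchors. The coding sequences of SDH3-1 and SDH3-2 are 99.8% identical, so how reads were divided between them is uncertain and their sum is the safer value. Together they had 1819 and 1722 normalised reads in arid5, against 1137 and 1151 in WT (1.55-fold). The sums were 2798 and 2506 in libraries labelled chr11/17, against 1136 and 1149 in WT (2.32-fold), and 2004 and 1990 in libraries labelled rlt1/2, against 1259 and 1271 in WT (1.58-fold). Taken singly, SDH3-1 (AT5G09600) had 884 and 801 in arid5, against 544 and 538 in WT, 1452 and 1200.2 in libraries labelled chr11/17, against 543 and 537 in WT, and 944 and 932 in libraries labelled rlt1/2, against 602 and 594 in WT. SDH3-2 (AT4G32210) had 935 and 921 in arid5, against 594 and 614 in WT, 1347 and 1305 in libraries labelled chr11/17, against 593 and 613 in WT, and 1061 and 1058 in libraries labelled rlt1/2, against 657 and 677 in WT. SDH4 (AT2G46505) had 1599 and 1669.8 normalised reads in arid5, against 1320.4 and 1251 in WT (0.34 ± 0.06), 2637 and 2439.9 in libraries labelled chr11/17, against 1319 and 1249 in WT (0.98 ± 0.07), and 1872 and 1913 in libraries labelled rlt1/2, against 1462 and 1382 in WT (0.41 ± 0.07). For all 3 genes the mutant and WT libraries did not overlap, but nothing is read from this, since the share among all genes was not counted.

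SDH5 to SDH8 encode subunits known from plants. SDH8 (AT2G46390), the most abundant of them per coding length, had 1186 and 1129 normalised reads in arid5, against 831 and 858 in WT (0.45 ± 0.07), 2122 and 1796 in libraries labelled chr11/17, against 829 and 857 in WT (1.20 ± 0.09), and 1250.5 and 1465 in libraries labelled rlt1/2, against 919.8 and 947 in WT (0.53 ± 0.09). SDH6 (AT1G08480) had 2295 and 2151 normalised reads in arid5, against 1439 and 1472 in WT (0.61 ± 0.06), 3573 and 3232 in libraries labelled chr11/17, against 1437 and 1469.8 in WT (1.22 ± 0.07), and 2411 and 2447 in libraries labelled rlt1/2, against 1593 and 1625 in WT (0.59 ± 0.07). SDH6 had the largest change of the plant subunits in each mutant, though in chr11/17 and rlt1/2 its lead over SDH8 was within the standard errors. Every mutant library stood above WT for both genes, from which nothing is read. SDH7A (AT3G47833) had 816 and 724 normalised reads in arid5, against 579.9 and 631 in WT (0.34 ± 0.08), 1450.4 and 1314 in libraries labelled chr11/17, against 579 and 630.3 in WT (1.18 ± 0.09), and 779.5 and 917 in libraries labelled rlt1/2, against 642 and 696 in WT (0.33 ± 0.10). SDH7B (AT5G62575) had 513 and 468 normalised reads in arid5, against 353 and 364 in WT (0.44 ± 0.09), 759.8 and 658 in libraries labelled chr11/17, against 353 and 363 in WT (0.96 ± 0.10), and 461 and 561 in libraries labelled rlt1/2, against 391 and 401 in WT (0.35 ± 0.11). SDH5 (AT1G47420) was called higher in each mutant with the smallest changes of these subunits, 0.23 ± 0.06 in arid5, 0.74 ± 0.09 in chr11/17 and 0.28 ± 0.08 in rlt1/2.

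Several of these calls needed all 4 libraries of a table. Leaving out 1 library leaves a group with a single library, which is assumed to vary like the other group. In arid5, SDH2-2 lost its call without any 1 library (changes of 0.16 without arid5 replicate 1, 0.24 without arid5 replicate 2, 0.21 without WT replicate 1 and 0.20 without WT replicate 2). SDH5 lost it without WT replicate 2 (0.19), and SDH7A without arid5 replicate 1 (0.25) or WT replicate 1 (0.28). In rlt1/2, SDH5 lost it without WT replicate 1 (0.32) or 2 (0.25). There SDH7A lost it without rlt1/2 replicate 2 (0.22) or WT replicate 1 (0.28), and SDH7B likewise (0.21 and 0.34). In chr11/17, SDH1-2 lost it without WT replicate 1 (0.57) or 2 (0.62). With DESeq2, SDH1-2 in chr11/17 (0.70), SDH2-2 in arid5 (0.21) and SDH7B in rlt1/2 (0.37) were not called.

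**Figure D2:**
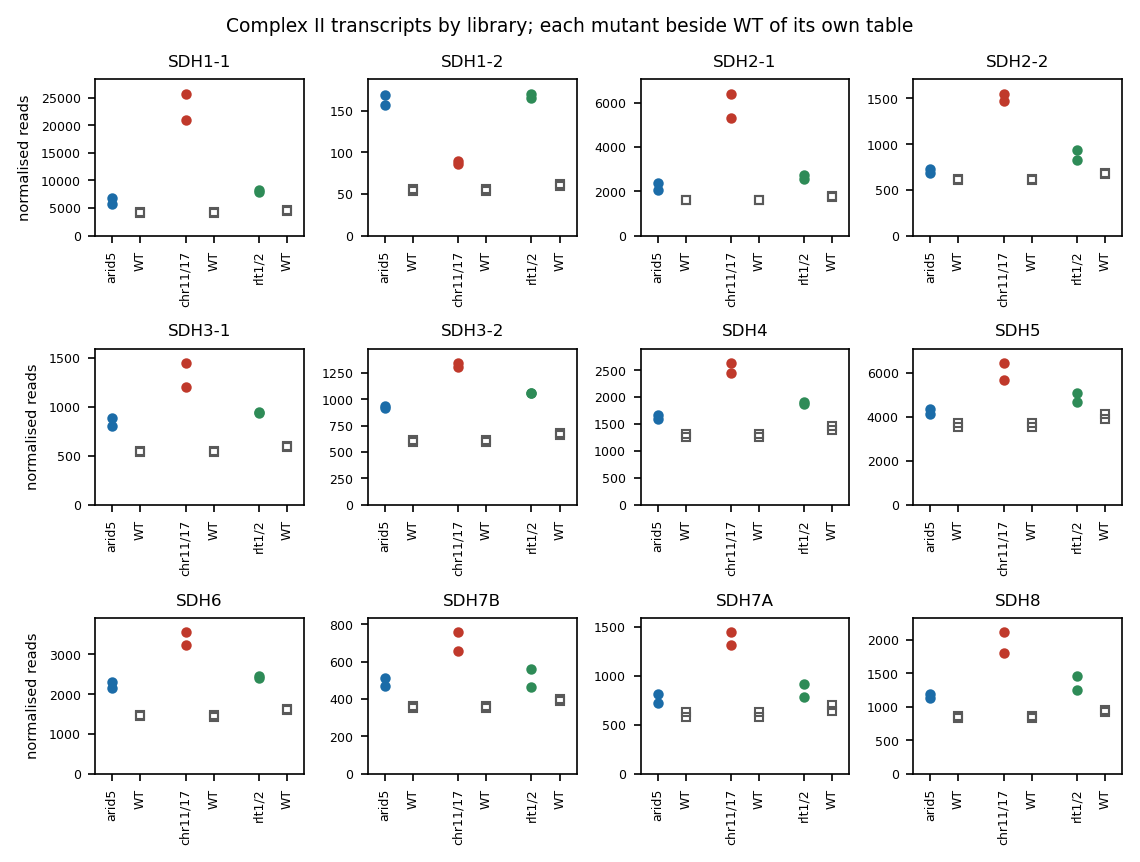
Normalised reads (vertical axis, from 0) of the 12 complex II genes in every library; filled circles are the mutant libraries, and open squares to their right are the 2 WT libraries of the same table. Every mutant library stands above its WT libraries, from which nothing is read, since the share among all genes was not counted. SDH1-1 reaches 25737 in chr11/17, whereas SDH1-2 is higher in arid5 and rlt1/2 than in chr11/17.

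Complex I takes electrons from NADH; its core subunits carry the flavin and iron-sulphur clusters, and plants add a domain of gamma carbonic anhydrases. Of its 12 members, 5 were called higher in arid5, 11 in libraries labelled chr11/17 and 5 in libraries labelled rlt1/2. The shares of all genes called higher were 23.3%, 35.9% and 23.8%. None of the members was called lower by limma, and scaling to equal library totals raised the member counts, as given with the alternatives for complex I. Their median changes, 0.020, 0.51 and 0.043, were smaller than those of complex II (0.46, 1.19 and 0.55) in each mutant, and their summed reads were 1.05-fold, 1.38-fold and 1.08-fold those of WT. The same 5 genes were called in arid5 and rlt1/2, namely CI76 (AT5G37510), NDUFA9-like (AT2G20360), CA3 (AT5G66510), CAL1 (AT5G63510) and a TYKY copy (AT1G16700). The others were called in chr11/17 alone of the mutants, except TYKY copy AT1G79010: CI51 (AT5G08530), NDUFV2-like (AT4G02580), PSST (AT5G11770), CA1 (AT1G19580), CA2 (AT1G47260) and CAL2 (AT3G48680), with changes of 0.22 ± 0.08, 0.29 ± 0.07, 0.33 ± 0.09, 0.57 ± 0.07, 0.38 ± 0.07 and 0.49 ± 0.07.

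PSST (AT5G11770), the core subunit with the highest level per coding length, had 3452 and 3423 normalised reads in arid5, against 3615 and 3625 in WT (-0.07 ± 0.05, not called). It had 4894 and 4205 in libraries labelled chr11/17, against 3610.0 and 3620.1 in WT (0.33 ± 0.09, higher), and 4043 and 3821 in libraries labelled rlt1/2, against 4003 and 4002 in WT (-0.03 ± 0.07, not called). In chr11/17 its call was lost without WT replicate 1 (0.32) or 2 (0.33), and its change was 0.22 without chr11/17 replicate 1. CA2 (AT1G47260), the most abundant carbonic anhydrase, had 3293 and 3189 normalised reads in arid5, against 3121 and 3269 in WT (0.02 ± 0.06, not called). It had 4141 and 4195 in libraries labelled chr11/17, against 3116 and 3264 in WT (0.38 ± 0.07, higher), and 3596 and 3662 in libraries labelled rlt1/2, against 3456 and 3608 in WT (0.04 ± 0.07, not called), and its mutant and WT libraries overlapped in arid5 and rlt1/2.

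The TYKY subunit, which carries iron-sulphur clusters, has 2 copies with 91.2% identical coding sequences. The copy AT1G16700 had 1856 and 1608 normalised reads in arid5, against 1433 and 1459 in WT (0.25 ± 0.07). It had 2926 and 2595 in libraries labelled chr11/17, against 1431 and 1457 in WT (0.93 ± 0.08), and 1962 and 2056 in libraries labelled rlt1/2, against 1587 and 1611 in WT (0.33 ± 0.07), and was called higher in each mutant. The more abundant copy AT1G79010 was called in none except under equal library totals (0.26, 0.24 and 0.29, called higher in all 3), with 2423 and 2312 in arid5, against 2327 and 2410.5 in WT (-0.00083 ± 0.06), 2598 and 2416 in libraries labelled chr11/17, against 2324 and 2407 in WT (0.08 ± 0.07), and 2486 and 2809 in libraries labelled rlt1/2, against 2577 and 2661 in WT (0.01 ± 0.08). Reads may be divided between copies this alike, and their sum was 1.07-fold, 1.38-fold and 1.10-fold that of WT in arid5, chr11/17 and rlt1/2.

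In arid5, 4 of the 5 complex I calls were lost when a library was left out: without arid5 replicate 1 the changes were 0.10 for CI76, 0.15 for NDUFA9-like, 0.13 for CA3 and 0.15 for TYKY (AT1G16700). Without WT replicate 1 they were 0.18, 0.17, 0.22 and 0.24. Without WT replicate 2, 0.14 for CI76, 0.13 for NDUFA9-like and 0.20 for CA3 were not called. In rlt1/2, 4 calls were lost without WT replicate 1, with 0.29 for CI76, 0.24 for NDUFA9-like, 0.26 for CA3 and 0.26 for CAL1, and without WT replicate 2, with 0.25, 0.20, 0.24 and 0.22. In chr11/17, CI51 lost its call without WT replicate 1 (0.22) or 2 (0.21), under quantile normalization (0.09), in edgeR and with the replicate block. NDUFV2-like lost its call there without WT replicate 2 (0.26) or under quantile normalization (0.14). With DESeq2, CI76 (0.16), NDUFA9-like (0.15) and CA3 (0.21) were not called in arid5, nor was CAL1 (0.24) in rlt1/2. The complex I counts in arid5 and rlt1/2 depend on the scaling. Under equal library totals, all 12 genes were called higher in arid5 and in chr11/17 and 11 of 12 in rlt1/2, with medians of 0.28, 0.67 and 0.32, beside a median of all genes of 0.25, 0.14 and 0.27 under the same scaling. The 7 genes added in arid5 were CI51 (0.28), NDUFV2-like (0.16), TYKY (AT1G79010) (0.26), PSST (0.19), CA1 (0.25), CA2 (0.28) and CAL2 (0.28), and the same genes but NDUFV2-like (0.14, not called) were added in rlt1/2.

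Complex III carries electrons from ubiquinol to cytochrome c, and its Rieske iron-sulphur protein is encoded by UCR1-1 and UCR1-2, whose coding sequences are 93.4% identical. Both were called higher in each mutant. UCR1-2 (AT5G13440), the more abundant copy, had 3471 and 3152 normalised reads in arid5, against 2787 and 2841 in WT (0.23 ± 0.06), 5302 and 4870.5 in libraries labelled chr11/17, against 2783 and 2837 in WT (0.85 ± 0.07), and 3613 and 3867 in libraries labelled rlt1/2, against 3086 and 3136 in WT (0.26 ± 0.07). UCR1-1 (AT5G13430) changed by 0.40 ± 0.06, 0.80 ± 0.07 and 0.39 ± 0.07. Summed over both copies, the level was 1.23-fold, 1.78-fold and 1.25-fold that of WT. The UCR1-2 call was lost in arid5 without arid5 replicate 1 (0.16) or WT replicate 1 (0.22), and in rlt1/2 without WT replicate 1 (0.25) or 2 (0.28).

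Cytochrome c shuttles electrons between complexes III and IV. CYTC-2 (AT4G10040) had 1075 and 910.4 normalised reads in arid5, against 589 and 638 in WT (0.68 ± 0.09). It had 3088 and 2683 in libraries labelled chr11/17, against 588 and 638 in WT (2.21 ± 0.09), a 4.71-fold level, and 1136 and 1298 in libraries labelled rlt1/2, against 653 and 704 in WT (0.83 ± 0.09). No mutant and WT libraries overlapped. CYTC-1 (AT1G22840), the more abundant copy, had 2801 and 2594 normalised reads in arid5, against 2007 and 2207 in WT (0.36 ± 0.07), 5732 and 5151 in libraries labelled chr11/17, against 2004 and 2204 in WT (1.37 ± 0.09), and 2827 and 3289 in libraries labelled rlt1/2, against 2223 and 2436 in WT (0.39 ± 0.09). CYTC-2 thus changed more than CYTC-1 in each mutant, and its share of cytochrome c reads per coding length was 28.1% and 26.3% in arid5, 35.4% and 34.6% in chr11/17 and 29.0% and 28.6% in rlt1/2, against 23.0% and 22.7% in WT.

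Complex IV reduces oxygen. Its subunit COX6B-1 (AT1G22450) had 2079 and 2026 normalised reads in arid5, against 1809.7 and 1843 in WT (0.17 ± 0.06), 2797 and 2779 in libraries labelled chr11/17, against 1807 and 1840.2 in WT (0.61 ± 0.06), and 2343 and 2429.6 in libraries labelled rlt1/2, against 2004 and 2034 in WT (0.24 ± 0.07). COX5B-1 (AT3G15640) was also called higher in each mutant, but its change in chr11/17, 0.27 ± 0.08, was below its changes in arid5 (0.45 ± 0.07) and rlt1/2 (0.39 ± 0.08); the direct comparisons of chr11/17 with arid5 (-0.15 ± 0.09) and rlt1/2 (-0.09 ± 0.09) were not called. The call of COX6B-1 was lost in arid5 without arid5 replicate 1 (0.15), WT replicate 1 (0.15) or WT replicate 2 (0.18) and with DESeq2 (0.17), and in rlt1/2 without WT replicate 1 (0.23) or 2 (0.25). That of COX5B-1 was lost in chr11/17 without chr11/17 replicate 1 (0.22) or WT replicate 1 (0.22).

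The alternative pathway had the widest range of changes: from -1.27 to 1.67 in arid5, from -2.92 to 5.17 in libraries labelled chr11/17 and from -1.46 to 1.89 in libraries labelled rlt1/2. Of its 9 genes, 3 were called higher and 2 lower among the 6 tested in arid5. In chr11/17, 5 were higher and 1 lower among 7, and in rlt1/2, 4 higher and 2 lower among 7. The shares of all genes were 23.3%, 35.9% and 23.8% called higher, and 24.6%, 36.0% and 24.0% called lower, in arid5, chr11/17 and rlt1/2. Some of the higher calls belong to genes that passed the filter on low values only with the help of mutant libraries. They were AOX1C and NDB4 in arid5, AOX1C, AOX1D and NDB4 in chr11/17, and AOX1C and AOX1D in rlt1/2. Such a filter favours genes that are higher in the mutant, so these counts support nothing. The same holds for the upper ends of the ranges, which are AOX1C in arid5 and rlt1/2 and AOX1D in chr11/17. Among genes that reached 10 in both WT libraries, the highest changes were 0.39 (NDB2) in arid5, 1.85 (AOX1A) in chr11/17 and 1.33 (NDB4) in rlt1/2. The summed reads of the pathway were 0.61-fold those of WT in arid5, 1.25-fold in chr11/17 and 0.64-fold in rlt1/2. For complexes I to IV with cytochrome c they were 1.17-fold, 1.94-fold and 1.22-fold. The pathway sums largely follow NDA1, which in the arid5 comparison had 4218 and 4097 of the 6326 and 6178 reads summed in WT. The median changes of the pathway genes tested were 0.22, 1.85 and 0.66, genes that passed with the help of mutant libraries included.

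The mitochondrial dysfunction motif (CTTGNNNNNCAAG or CTTGNNNNNCACG) is known from promoters of Arabidopsis genes that respond to mitochondrial stress, AOX1A among them. It was searched on both strands from 250 bases before to 50 bases after the gene start in the RefSeq TAIR10.1 annotation, and it was found for 4 of 9 alternative pathway genes and 1 of 12 complex I genes, but for none of the 12 complex II genes; 1.28% of 22737 promoters of protein-coding genes in the tables hold it. The 6 sites in member promoters are shown because AOX1A, NDA1 and NDB2, which carry 4 of them, differ in direction; capitals mark the motif, and 8 bases stand on each side. The upstream AOX1A site (chr3:7906510-7906538, plus strand) runs from base -3 to 10 and the downstream AOX1A site (chr3:7906537-7906565, plus strand) from base 25 to 37 of the gene. The AOX1B site (chr3:7903971-7903999, minus strand) lies at bases -118 to -106, the NDA1 site (chr1:2204026-2204054, plus strand) at -70 to -58 and the NDB2 site (chr4:2572340-2572368, plus strand) at -79 to -67. The CI51 site (chr5:2762235-2762263, plus strand) lies at -236 to -224, where the window overlaps the neighbouring gene AT5G08535.
AOX1A upstream: atctagctCTTGGCGACCACGcaagtatc
AOX1A downstream: tcttccatCTTGCTCTCCAAGaaaaatct
AOX1B: ctaaaagaCTTGTAGCACACGaaaagaca
NDA1: tgtcgtttCTTGCGCATCAAGttctgctg
NDB2: cgatctggCTTGGCCACCAAGattgtttg
CI51: ggtgactgCTTGAGTTTCACGtttttggt
A match describes letters in a window and is not evidence that a factor binds there, and the genes AOX1C, AOX1D and NDB4, which were called higher in chr11/17, have no match in theirs.

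AOX1A (AT3G22370) encodes the main alternative oxidase of Arabidopsis. It fell to 685 and 629.6 normalised reads in arid5, against 972 and 975 in WT (-0.56 ± 0.07). It rose to 3248 and 3840.1 in libraries labelled chr11/17, against 970.4 and 974 in WT (1.85 ± 0.09, 3.65-fold). It was also called lower with 890.4 and 898 in libraries labelled rlt1/2, against 1076 and 1076 in WT (-0.26 ± 0.08), but the change was 0.01 under equal library totals, and the call was lost with DESeq2 (-0.27) and without WT replicate 1 (-0.27) or 2 (-0.26). AOX1A was the single member called in opposite directions in different mutants. AOX1D (AT1G32350), a copy known to respond to stress, was near the detection limit in WT and in arid5, with 7.7 and 12.3 normalised reads in arid5, against 9.5 and 8.3 in WT, and was not tested there. It reached 494 and 911 in libraries labelled chr11/17, against 9.5 and 8.3 in WT (5.17 ± 0.28, a 78.9-fold level), the largest change of any member. It had 54.6 and 33.2 in libraries labelled rlt1/2, against 10.5 and 9.3 in WT (1.41 ± 0.27, 4.45-fold). AOX1C (AT3G27620) had 51.3 and 51.7 normalised reads in arid5, against 11.5 and 7.3 in WT (1.67 ± 0.24), 83.2 and 96.4 in libraries labelled chr11/17, against 11.5 and 7.3 in WT (2.37 ± 0.21), and 66.3 and 63.9 in libraries labelled rlt1/2, against 12.7 and 8.2 in WT (1.89 ± 0.24). It rose in each mutant from a low level. AOX1B (AT3G22360) did not pass the filter, with values of at most 9.7 normalised reads in any library, and AOX2 (AT5G64210), which is not among the rows of the arid5 table, had 10.6 and 3.7 in libraries labelled chr11/17, against 0 and 2.1 in WT, and 0 and 3.4 in libraries labelled rlt1/2, against 0 and 2.2 in WT. AOX1A was the largest part of alternative oxidase reads per coding length in every library, AOX2 left out, but its share was 91.2% and 89.7% in arid5, 83.3% and 77.5% in chr11/17 and 86.9% and 89.1% in rlt1/2, against 97.6% and 98.3% in WT.

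NDA1 (AT1G07180) encodes an internal alternative NADH dehydrogenase known for light-dependent expression, and it fell in each mutant. It had 1631 and 1804 normalised reads in arid5, against 4218 and 4097 in WT (-1.27 ± 0.06). It had 432 and 676 in libraries labelled chr11/17, against 4212 and 4091 in WT (-2.92 ± 0.18, 7.5-fold lower), and 1940.2 and 1429.7 in libraries labelled rlt1/2, against 4670.2 and 4523 in WT (-1.46 ± 0.11). All mutant libraries stood below WT, and the chr11/17 libraries were the lowest. The photosynthesis markers were lower in the same libraries and also lowest in chr11/17 (summed values above); their part in the NDA1 result was not tested. Its copy NDA2 (AT2G29990) was not called, with 384 and 402 normalised reads in arid5, against 421 and 339 in WT (0.05 ± 0.11), 428 and 435 in libraries labelled chr11/17, against 421 and 338 in WT (0.19 ± 0.12), and 432 and 381 in libraries labelled rlt1/2, against 466 and 375 in WT (-0.04 ± 0.12). Under equal library totals NDA2 was called higher in arid5 (0.31) and chr11/17 (0.35).

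NDB2 (AT4G05020) encodes the main external NADH dehydrogenase. It had 1035 and 848 normalised reads in arid5, against 684 and 742 in WT (0.39 ± 0.09). It had 2356 and 2329 in libraries labelled chr11/17, against 683 and 741 in WT (1.71 ± 0.07), and 1138 and 1378 in libraries labelled rlt1/2, against 758 and 818 in WT (0.66 ± 0.10). It rose in each mutant, but in arid5 the call was lost without arid5 replicate 1 (0.25). NDB4 (AT2G20800), another external enzyme of low level in WT, had 48.5 and 38.4 normalised reads in arid5, against 9.5 and 9.4 in WT (1.45 ± 0.24), 145 and 144 in libraries labelled chr11/17, against 9.5 and 9.4 in WT (2.99 ± 0.18), and 32.8 and 51.8 in libraries labelled rlt1/2, against 10.5 and 10.4 in WT (1.33 ± 0.26). Per coding length, the make-up of these dehydrogenases differed most in chr11/17: NDA1 was 14.7% and 21.4% and NDB2 66.3% and 60.8% of their reads there, against 80.9% and 81.0% for NDA1 and 10.8% and 12.1% for NDB2 in WT. In arid5 NDA1 was 56.0% and 61.3%, and in rlt1/2 58.1% and 47.8%.

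**Figure D3:**
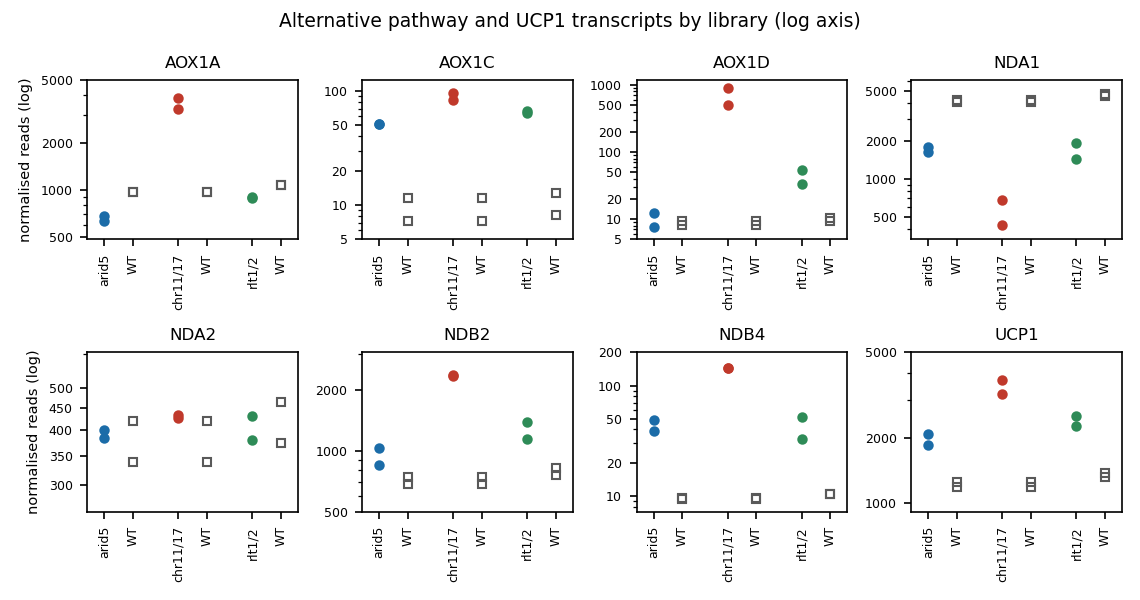
Normalised reads (vertical log axes, which differ between panels) of alternative oxidase and dehydrogenase genes and UCP1 in every library; filled circles are mutants, and open squares to their right are the WT libraries of the same table. AOX1D reaches 494 and 911 in chr11/17 against 9.5 and 8.3 in WT, NDA1 is below WT in all mutants, and AOX1A is above WT in chr11/17 but below it in arid5 and, except under equal library totals, in rlt1/2.

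**Figure D4:**
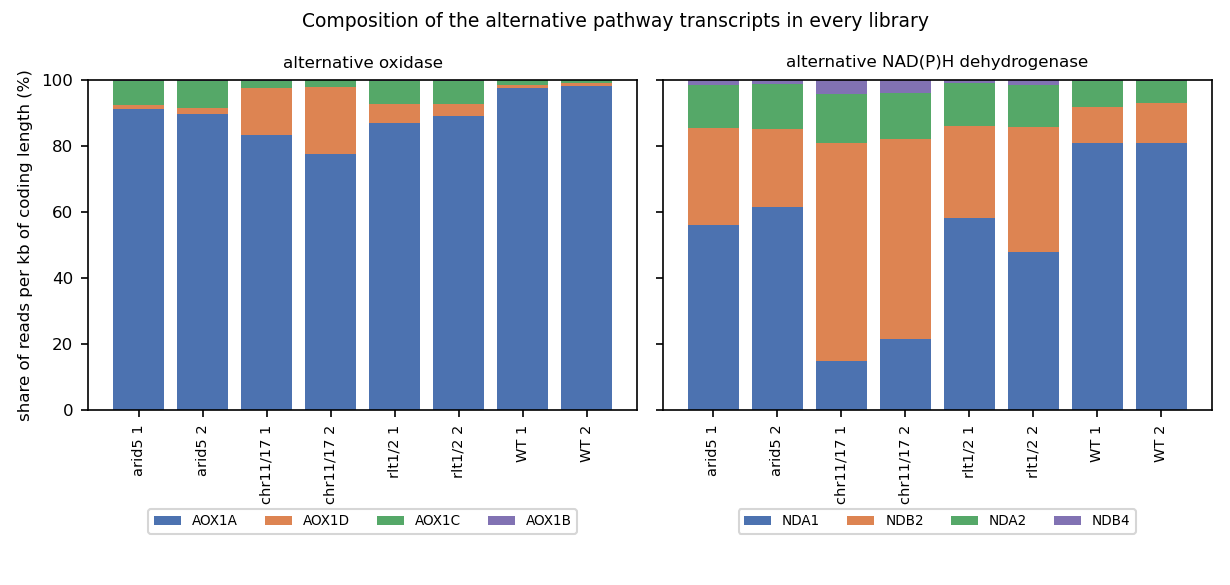
Share (percent, vertical axis) of each gene in the reads per kilobase of coding length of the alternative oxidases other than AOX2 (left) and of the 4 listed alternative NAD(P)H dehydrogenases (right), by library. AOX1A makes up 77.5% to 98.3% of its family, and NDB2 exceeds NDA1 in both chr11/17 libraries and in no other library.

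The NDA1 promoter is shown whole because it holds matches to the mitochondrial dysfunction motif and to site II and its gene fell in each mutant, and the CYTC-2 promoter because its gene had the largest change in chr11/17 among the members of complexes III and IV and cytochrome c. Capitals mark the mitochondrial dysfunction motif and site II elements (TGGGCC or TGGGCT on either strand), which are known from promoters of cytochrome c and other respiratory genes. Each sequence is the 250 bases before the gene start, plus strand, chr1:2203854-2204103 for NDA1 and chr4:6276698-6276947 for CYTC-2.
NDA1: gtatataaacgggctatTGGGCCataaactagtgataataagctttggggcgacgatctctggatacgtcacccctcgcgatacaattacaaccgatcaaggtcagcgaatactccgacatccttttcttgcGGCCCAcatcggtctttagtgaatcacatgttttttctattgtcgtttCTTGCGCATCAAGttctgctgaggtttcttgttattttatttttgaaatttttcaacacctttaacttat
CYTC-2: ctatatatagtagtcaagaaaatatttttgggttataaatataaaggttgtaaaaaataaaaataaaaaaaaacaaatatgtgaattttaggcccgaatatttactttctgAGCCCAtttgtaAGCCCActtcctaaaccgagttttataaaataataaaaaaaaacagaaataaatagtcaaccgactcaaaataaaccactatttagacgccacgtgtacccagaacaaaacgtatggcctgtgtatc
Site II elements were found in 17 of the 47 member promoters (36.2%), beside 23.8% of all 22737. The share was 6 of 12 for complex I (50%) and 2 of 12 for complex II (16.7%). The telo-box (AAACCCT), another promoter element, was in 3 member promoters (6.38%), beside 9.5% of all.

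UCP1 (AT3G54110) encodes an uncoupling protein of the inner mitochondrial membrane, a carrier known to dissipate the proton gradient. It had 2099 and 1857 normalised reads in arid5, against 1193 and 1257 in WT (0.68 ± 0.07). It had 3719.7 and 3191 in libraries labelled chr11/17, against 1192 and 1256 in WT (1.49 ± 0.09), and 2269.9 and 2546 in libraries labelled rlt1/2, against 1321 and 1388 in WT (0.82 ± 0.08). UCP1 was called higher in each mutant, and its libraries did not overlap with WT.

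Of the 7 TCA cycle members, 6 were called higher and 1 lower in arid5 and in rlt1/2. In chr11/17, 5 were called higher and none lower by limma. The shares of all genes were 23.3%, 35.9% and 23.8% called higher, and 24.6%, 36.0% and 24.0% called lower, in arid5, chr11/17 and rlt1/2. CSY4 (AT2G44350), a citrate synthase, had 4711 and 4048 normalised reads in arid5, against 3008 and 3163 in WT (0.50 ± 0.07), 8588 and 7968 in libraries labelled chr11/17, against 3004 and 3158 in WT (1.42 ± 0.08), and 5266 and 5563 in libraries labelled rlt1/2, against 3331 and 3491 in WT (0.66 ± 0.07). Aconitase ACO3 (AT2G05710) had 14478 and 13543 normalised reads in arid5, against 9647 and 9031 in WT (0.58 ± 0.06), 20486 and 18342 in libraries labelled chr11/17, against 9633 and 9018 in WT (1.06 ± 0.10), and 16247 and 16117 in libraries labelled rlt1/2, against 10681 and 9969.5 in WT (0.65 ± 0.09). Both rose in each mutant.

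The malate dehydrogenase copies differed. The more abundant mMDH1 (AT1G53240) had 10025 and 9676 normalised reads in arid5, against 8751 and 8667 in WT (0.18 ± 0.05, higher). It had 9942 and 9959 in libraries labelled chr11/17, against 8739 and 8655 in WT (0.19 ± 0.08, not called), and 11174 and 11408 in libraries labelled rlt1/2, against 9689.7 and 9568 in WT (0.23 ± 0.08, higher). The minor copy mMDH2 (AT3G15020) rose in each mutant, with 1579.5 and 1325 in arid5, against 948 and 874 in WT (0.66 ± 0.08), 2776 and 2392 in libraries labelled chr11/17, against 947 and 873 in WT (1.49 ± 0.09), and 1661 and 1823 in libraries labelled rlt1/2, against 1049.8 and 965 in WT (0.78 ± 0.08). Its share of their reads per coding length was 21.8% and 19.4% in chr11/17, against 9.8% and 9.2% in WT. The mMDH1 calls were lost in arid5 without arid5 replicate 1 (0.15), WT replicate 1 (0.18) or WT replicate 2 (0.17), and in rlt1/2 without WT replicate 1 (0.24) or 2 (0.22). In chr11/17 it was called higher without chr11/17 replicate 1 (0.20) or 2 (0.19), with DESeq2 (0.21) and under equal library totals (0.36).

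FUM1 (AT2G47510) encodes the mitochondrial fumarase and FUM2 (AT5G50950) the cytosolic one, which is known for fumarate storage in leaves. FUM1 had 3437 and 3442 normalised reads in arid5, against 2897 and 2911 in WT (0.24 ± 0.05), 3914 and 3822 in libraries labelled chr11/17, against 2893 and 2906 in WT (0.41 ± 0.07), and 3762 and 4026 in libraries labelled rlt1/2, against 3208 and 3213 in WT (0.28 ± 0.07), and was called higher in each mutant; in rlt1/2 the call was lost without WT replicate 1 (0.28) or 2 (0.28). FUM2 fell to 1514 and 1434 in arid5, against 2636 and 2011 in WT (-0.64 ± 0.10). It fell to 1621 and 1335 in libraries labelled rlt1/2, against 2918 and 2221 in WT (-0.79 ± 0.12). It was not called at 2123 and 1975 in libraries labelled chr11/17, against 2633 and 2008 in WT (-0.17 ± 0.13). The WT libraries differed more from each other for FUM2 than for FUM1, and without WT replicate 2 FUM2 was called lower in chr11/17 as well (-0.36).

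**Figure D5:**
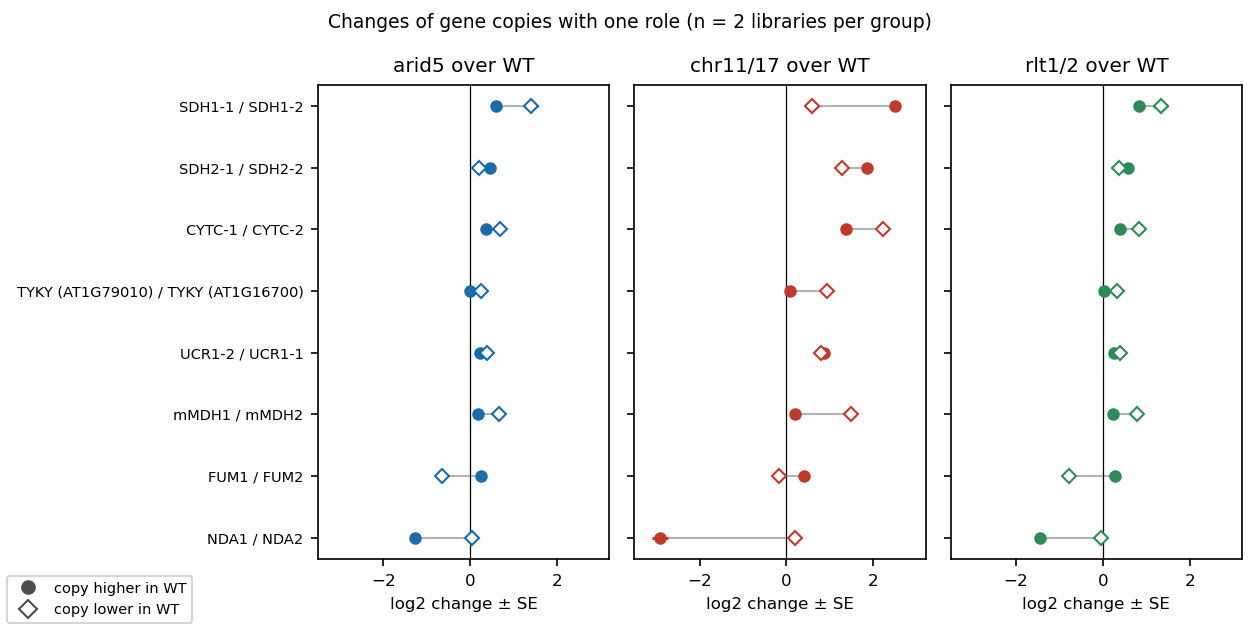
Log2 change (horizontal axis, mutant over WT, ± standard error) of 8 pairs of gene copies with the same role, in 1 panel per mutant; the filled circle is the copy with the higher level per coding length in WT and the open diamond the other. In chr11/17 the major copies SDH1-1 and SDH2-1 lie right of their minor copies, whereas the minor copies CYTC-2, TYKY (AT1G16700) and mMDH2 lie right of the major ones, and NDA1 lies far left of NDA2.

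The remaining nuclear genes of the same pathways were taken from lists written with earlier results of these data known. Their counts stand beside the 23.3%, 35.9% and 23.8% of all genes that were called higher in arid5, chr11/17 and rlt1/2. Of 21 other complex I genes, 7 were called higher and 1 lower in arid5, 18 higher in chr11/17 and 5 higher in rlt1/2, with medians of 0.12, 0.52 and 0.12; the share in rlt1/2 did not exceed that of all genes. Among them was AT2G33220, a GRIM-19 protein, with 2769 and 2669.8 in arid5, against 1829.7 and 1877 in WT (0.55 ± 0.06) and 3393 and 3224 in libraries labelled chr11/17, against 1827 and 1874 in WT (0.83 ± 0.07). SDH2-3, a seed-specific copy of the iron-sulphur subunit, had 13.4 and 18.2 in libraries labelled chr11/17, against 0 and 3.1 in WT, and was called higher there. It passed the filter on low values only through those mutant libraries, so the call supports nothing. Of 13 other complex III genes, 8 were called higher and 1 lower in arid5, 12 higher in chr11/17, and 8 higher and 2 lower in rlt1/2. Their medians were 0.25, 0.70 and 0.30. The largest change among them in chr11/17 was that of AT5G25450, with 309.5 and 285 normalised reads, against 42.2 and 49.9 in WT (2.46 ± 0.16). Cytochrome c1 gene AT3G27240 had 6169 and 5514 in libraries labelled chr11/17, against 2573 and 2719 in WT (1.14 ± 0.08). Of 8 other complex IV genes tested, 4, 7 and 4 were called higher and none lower by limma, with medians of 0.21, 0.70 and 0.18; the subunit Vc gene AT2G47380 had 2187 and 2042 in libraries labelled chr11/17, against 965 and 1012 in WT (1.09 ± 0.07).

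Of 12 ATP synthase genes, 6 were called higher in arid5, 9 in chr11/17 and 7 in rlt1/2, and 1 was lower in rlt1/2, with medians of 0.18, 0.53 and 0.22; the epsilon chain gene AT1G51650 had 8305 and 7721 in libraries labelled chr11/17, against 3610.1 and 3673 in WT (1.13 ± 0.07). Of 22 other TCA cycle and pyruvate dehydrogenase genes tested, 17, 20 and 17 were called higher and 1 lower in each mutant, with medians of 0.37, 1.08 and 0.48. Isocitrate dehydrogenase subunit gene IDH2 had 1588 and 1380.5 in arid5, against 781 and 842 in WT (0.86 ± 0.08) and 1587 and 1875 in libraries labelled rlt1/2, against 865 and 929 in WT (0.94 ± 0.09). The 2-oxoglutarate dehydrogenase E1 gene AT5G65750 had 5532 and 4655 in libraries labelled chr11/17, against 1513 and 1415 in WT (1.79 ± 0.10). None of the 3 other alternative pathway genes tested was called higher: NDC1, which is found in chloroplasts as well as mitochondria, fell in each mutant, with changes of -0.87 ± 0.06 in arid5, -1.22 ± 0.09 in chr11/17 and -0.87 ± 0.08 in rlt1/2. NDB1, an external NADPH dehydrogenase, was lower in chr11/17 (-0.94 ± 0.09) and rlt1/2 (-0.27 ± 0.08) and not called in arid5 (-0.23 ± 0.09).

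Genes known to respond to mitochondrial stress were listed beside the alternative oxidases. Of these, 5 were called higher and 1 lower among 11 tested in arid5, 11 higher among 13 in libraries labelled chr11/17, and 6 higher among 12 in libraries labelled rlt1/2, with medians of 0.53, 1.17 and 0.58, where 23.3%, 35.9% and 23.8% of all genes were called higher. The genes tested in chr11/17 but not in arid5 passed the filter on low values through the chr11/17 libraries, so any call of theirs supports nothing. The 3 medians are over different sets of genes. BCS1 (AT3G50930), an outer-membrane AAA protein, had 294 and 276 normalised reads in arid5, against 140.1 and 133 in WT (1.01 ± 0.13). It had 1571 and 1553 in libraries labelled chr11/17, against 139.9 and 133 in WT (3.42 ± 0.09), and 468 and 560.1 in libraries labelled rlt1/2, against 155 and 147 in WT (1.70 ± 0.13), and was called higher in each mutant. The oxidative stress marker AT2G21640 had 808 and 999 in libraries labelled chr11/17, against 65.2 and 58.3 in WT (3.66 ± 0.14). Whether these genes and the alternative oxidases move for the same reason was not tested.

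Differences between the mutants were tested on whole reads recovered from all 8 libraries with edgeR's quasi-likelihood test. The choice of members also knew these libraries, so the counts are descriptions. Between chr11/17 and arid5, 38 of 45 members were higher in chr11/17 and 2 lower, where 65.2% of 21288 genes were called, 32.2% higher and 33.0% lower. Between chr11/17 and rlt1/2, 37 were higher and 2 lower, where 64.8% of genes were called, 32.2% higher and 32.6% lower. SDH1-2 (-0.86 ± 0.15 against arid5 and -0.75 ± 0.15 against rlt1/2) and NDA1 (-1.61 ± 0.18 and -1.43 ± 0.18) were the members lower in chr11/17. Complex II had median differences of 0.67 in both comparisons and complex I of 0.43 and 0.42. The differences were 1.92 ± 0.12 and 1.71 ± 0.12 for SDH1-1, 2.46 ± 0.09 and 2.17 ± 0.09 for AOX1A, and 6.14 ± 0.39 and 4.18 ± 0.31 for AOX1D. With 8 and 13 reads, AOX1D was near the detection limit in arid5, so the size of its difference from arid5 is uncertain. Members not called in either included COX5B-1, NDA2, TYKY (AT1G79010) and mMDH1, and FUM1 was not called against rlt1/2. With 1 library left out, the calls of CI51 (0.19 against arid5 and 0.16 against rlt1/2 without chr11/17 replicate 1; 0.25 and 0.21 without arid5 replicates 1 and 2; 0.16 and 0.24 without rlt1/2 replicates 1 and 2) were lost. So were those of FUM1 against arid5 (0.18 without chr11/17 replicate 1, 0.20 and 0.19 without arid5 replicates 1 and 2). The call of AOX1C against rlt1/2 was lost without chr11/17 replicate 2 (0.54), rlt1/2 replicate 1 (0.67) or 2 (0.62), and with DESeq2 (0.65).

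Between rlt1/2 and arid5, edgeR called 0 of 45 members, where 0.366% of all genes were called, 0.324% higher and 0.0423% lower; 3 members had an unadjusted p under 0.05, and DESeq2 called 1, AOX1D. The differences ran from -0.19 ± 0.26 (NDB4) to 1.96 ± 0.54 (AOX1D, with 8 and 13 reads in arid5). For SDH1-1 the difference was 0.21 ± 0.12, for AOX1A 0.29 ± 0.09 and for NDA1 -0.18 ± 0.17. A call that was not made does not show that the 2 mutants have the same levels.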

How the data were processed

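HISAT2, edgeR and the TAIR10 build are named, per the submitters' processing notes; versions, the read counter, its annotation and strand setting: not given in the sources used here. The authors deposited 3 tables, each with 2 mutant and 2 WT libraries, holding a normalised signal per gene scaled to a common library size within the table (23022, 23427 and 23248 genes). These values are edgeR's quantile-adjusted counts, and inverting the adjustment returned 100% of them to whole reads within 1e-10, with the WT reads the same in all tables. All columns carried a sample name and 0 were left out.

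Groups came from the labels. Each mutant was compared with WT within its table by limma 3.58.1 (trend, R 4.3.3) on log2(value + 10), two-sided, for genes reaching 10 in 2 or more libraries, since the values are no raw counts; the scale understates changes of low genes. Mutants were compared with each other by edgeR 4.0.16 on recovered reads. P-values were Benjamini-Hochberg adjusted over all genes tested, with a threshold of 0.05. Alternatives were pseudocounts of 1 and 50, no filter or a filter at 50, equal library totals, quantile normalization, edgeR, DESeq2 1.42.0, leaving out each library, and a replicate block. The fits were tested on simulated data.

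Members and lists were chosen with earlier results of these data known. Values of every library are given for members called in at least 1 mutant with a change of at least 0.8, for the sole called or uncalled member and the most abundant member of a role, and for AOX1A and UCP1; of the other listed genes, up to 2 called per list and mutant with the smallest adjusted p could be named. AOX2, which is untested, was added to these after its values were seen. For 1 member, values are not reported here, though it stays in the counts. Coding lengths, gene starts and sequences come from RefSeq TAIR10.1. Counting error alone is covered by the depth given, and PCR reads are not independent molecules.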

Additional observations from a re-analysis of the deposited data

How the results depend on the processing

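With 2 libraries per group, the calls rest on little replication, and members with few reads (AOX1B, AOX1C, AOX1D, AOX2 and NDB4) are limited by depth. Of the member values recomputed under the alternatives, 2561 stayed on their side of the threshold, small changes of sign among uncalled values included. A call was lost by 86 and gained by 21. Another 8 values, called in neither fit, changed sign by more than a limit set from the standard error. They arose under quantile normalization, under equal library totals or without WT replicate 1. The last 7 changed sign and were called in either fit. All 7 came with equal library totals, the scaling that moved the median of all genes upward. In arid5, NDUFV2-like was 0.16, TYKY (AT1G79010) 0.26, PSST 0.19 and CA1 0.25, and in rlt1/2, AOX1A was 0.0080, PSST 0.25 and CAL2 0.25. Leaving out 1 library gave 23 to 32 members higher in arid5, 36 to 41 in chr11/17 and 23 to 34 in rlt1/2, and 3, 1 to 2 and 2 to 3 members lower; the 2 lower in chr11/17 were found without WT replicate 2. Equal library totals gave 41, 43 and 40 members higher in arid5, chr11/17 and rlt1/2, and DESeq2 28, 40 and 32, beside 33, 40 and 34; genes called under equal totals were 12426, 15116 and 12359, and with DESeq2 7281, 13151 and 7749. Between rlt1/2 and arid5, 78 genes were called, 175 with DESeq2 and 10 to 64 without 1 library, and DESeq2 called 1 member higher; the cause was not tested.

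Whether replicate numbers pair the samples cannot be decided from 2 pairs per comparison. Over genes, deviations of same-numbered libraries correlated at -0.0066 in arid5, 0.011 in chr11/17 and 0.21 in rlt1/2. A fit with the replicate block called 33 members higher and 3 lower in arid5, 39 and 1 in chr11/17, and 34 and 3 in rlt1/2, and 9915, 14833 and 11364 genes, beside 9846, 14992 and 9926 without it. Between the mutants, the block gave 13768 genes for chr11/17 against arid5, 13671 for chr11/17 against rlt1/2 and 64 for rlt1/2 against arid5.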
